A study of Homo sapiens with 16 samples.

Results

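Chromosomes 4, 6, 13, 18 and 21 held few TOP2B intervals in PC9 cells, and those of chromosomes 6, 18 and 21 lay mainly on 1 arm in each list. The members described here are all intervals on these 5 chromosomes in 4 lists, 523 of 44922 intervals in all, placed by their midpoint on GRCh37. They number 55 of 7493 intervals in osimertinib-treated METTL7A knockout cells, 159 of 9655 in treated wild type, 126 of 12493 in untreated METTL7A knockout cells and 183 of 15281 in untreated wild type. The chromosomes were chosen by their low interval counts in these same lists, so the counts per chromosome, and the densities, empty stretches, occupied windows and spacing that follow from them, are a description and no result.

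PC9 cells are a human lung adenocarcinoma line driven by mutant EGFR, the receptor kinase that osimertinib blocks. TOP2B was profiled by CUT&RUN, which uses an antibody to bring a nuclease to its target and sequences the DNA it releases. The 4 conditions were METTL7A knockout and wild type, each either grown untreated or kept under osimertinib for 6 to 8 weeks at doses raised from 100 nM. Each condition had 2 replicate TOP2B libraries, from which the authors made 1 list of intersected peaks. The knockout is described only by its genotype, and the labels do not say whether it is 1 clone or whether the replicates are separate cultures. Neither the METTL7A locus nor the sequencing depth can be read from the lists used here. With 1 list per condition there was no spread between replicates and no test. All intervals quoted are 95% intervals that cover counting error only.

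TOP2B is a type II DNA topoisomerase. It relieves twisting and tangling of DNA by passing one duplex through a transient break in another. It is known from promoters and other open chromatin and from the anchors of chromatin loops bound by CTCF and cohesin. Chromosomes 4, 13, 18 and 21 are known as gene-poor, and chromosome 18 tends to lie at the edge of the nucleus. The short arm of chromosome 6 carries the major histocompatibility complex, and the short arms of chromosomes 13 and 21 carry ribosomal RNA genes and satellite repeats that are largely missing from GRCh37. The lists were not matched to genes, because the annotation at hand is of another build. For the same reason no sequence is shown.

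Together the 5 chromosomes make up 19.9% of the length of the autosomes and X. They held 0.734% of the treated knockout list (0.553 to 0.954), 1.65% of the treated wild-type list, 1.01% of the untreated knockout list and 1.20% of the untreated wild-type list. Their density was 0.0911 intervals per Mb in treated knockout (0.0686 to 0.119), 0.263 in treated wild type (0.224 to 0.308), 0.209 in untreated knockout (0.174 to 0.249) and 0.303 in untreated wild type (0.261 to 0.350). The densities of the other autosomes and X were 3.06, 3.90, 5.08 and 6.21 intervals per Mb in the same order of lists. Where a list has no interval, signal too low to be called as a peak in both replicates may still be present.

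**Figure D1:**
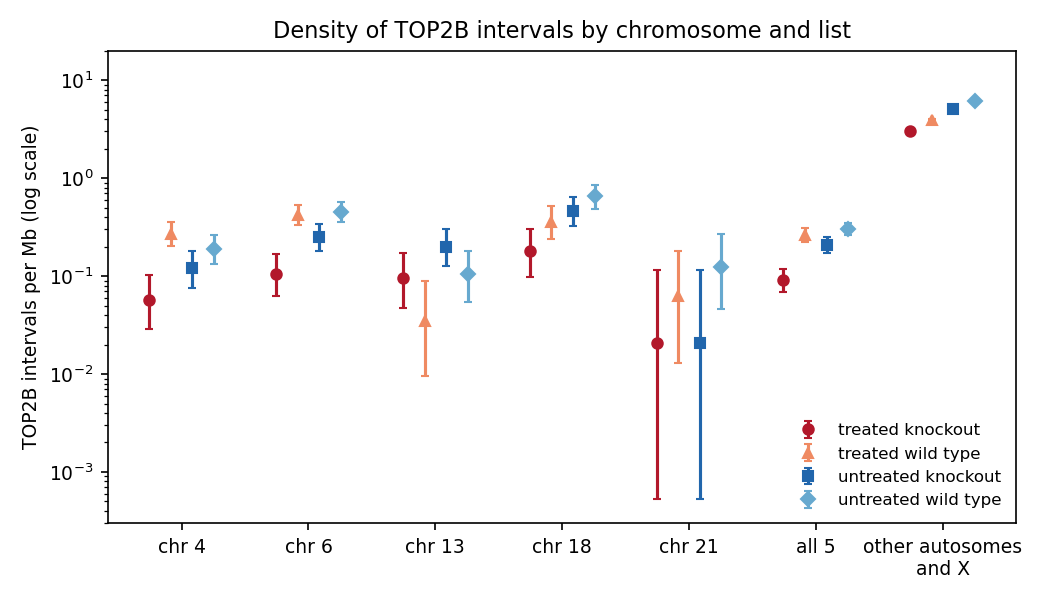
Intervals per Mb of chromosome length (log axis) on each of the 5 chromosomes, on all 5 together and on the other autosomes and X, with 1 point per list and bars for the 95% Poisson interval. Each of the 5 chromosomes lies below the pooled value of the other autosomes and X in every list, and chromosome 21 rests on 1 interval in both knockout lists.

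Chromosome 18 was the densest of the 5 in 3 of the 4 lists, with 0.179 intervals per Mb in treated knockout, 0.461 in untreated knockout and 0.653 in untreated wild type. In treated wild type chromosome 6 came first at 0.421 per Mb (0.329 to 0.530), but its interval overlapped that of chromosome 18 at 0.359 (0.238 to 0.518). The lowest values were those of chromosome 21, with 0.0208 intervals per Mb in both knockout lists, and of chromosome 13 in treated wild type, with 0.0347. The boundary of the set was not the same in every list. The next sparsest chromosome was chromosome 22 in both knockout lists, at 0.273 per Mb in treated and 0.780 in untreated knockout, and chromosome 15 in untreated wild type, at 1.51. In treated wild type chromosome X had 0.135 intervals per Mb, below chromosomes 4, 6 and 18 of that list.

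Large parts of the 5 chromosomes were empty in all 4 lists. Of their 608 windows of 1 Mb, 109 (17.9%) had an interval in at least 1 list and 9 had one in all 4. The other autosomes and X, which the choice by low counts left out, had an interval of at least 1 list in 53.7% of 2445 windows and of all 4 in 466. The longest stretch without an interval, not counting the centromere gap, was 92.9 Mb on chromosome 6, from 78.2 Mb to the end of the long arm. On chromosome 4 it was 72.4 Mb, from 68.3 to 140.6 Mb, and on chromosome 18 it was 38.5 Mb, from 34.9 to 73.4 Mb. The whole long arm of chromosome 21, 33.8 Mb, had none. Chromosome 13, with 21.5 Mb, was less extreme. Among the 18 other chromosomes the longest such stretch ranged from 0.831 Mb on chromosome 20 to 47.4 Mb on chromosome 9, with a median of 17.7 Mb.

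Where intervals were present they favoured single arms. On chromosome 6 the short arm held 18 of 18 intervals in treated knockout, 64 of 72 in treated wild type, 43 of 43 in untreated knockout and 78 of 78 in untreated wild type. The 8 long-arm intervals of treated wild type lay between 64102951 and 78172700. On chromosome 4 the short arm held 8 of 11 intervals in treated knockout, 42 of 52 in treated wild type, 14 of 23 in untreated knockout and 27 of 36 in untreated wild type, although it is the shorter arm. Chromosome 13 had no interval on its short arm, which GRCh37 hardly covers.

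On chromosome 18 treated wild type had its intervals on the other arm than the remaining lists. Its long arm held 14 of 14 intervals in treated knockout, 36 of 36 in untreated knockout and 51 of 51 in untreated wild type, and its short arm had none in these lists. In treated wild type the short arm held 26 of 28 intervals, spread from 296351 to 13528850, and the long arm held 2. Counting each called peak once gave 23 on the short arm and 2 on the long arm of treated wild type. Among intervals whose maximum reached the list median the counts were 7 and 0. The order of the arms was the same by each of these counts.

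The long-arm intervals of chromosome 18 lay at its end. From 73 Mb to the end there were 14 intervals in treated knockout, 2 in treated wild type, 36 in untreated knockout and 49 in untreated wild type. The 1 Mb window at 77 to 78 Mb held 7, 0, 12 and 19 intervals in that order. At 74 to 75 Mb the counts were 2 in treated knockout, 1 in treated wild type, 10 in untreated knockout and 16 in untreated wild type. The terminal part of 18q was thus occupied in the untreated lists of both genotypes and in the treated knockout, and held 2 intervals in treated wild type.

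**Figure D2:**
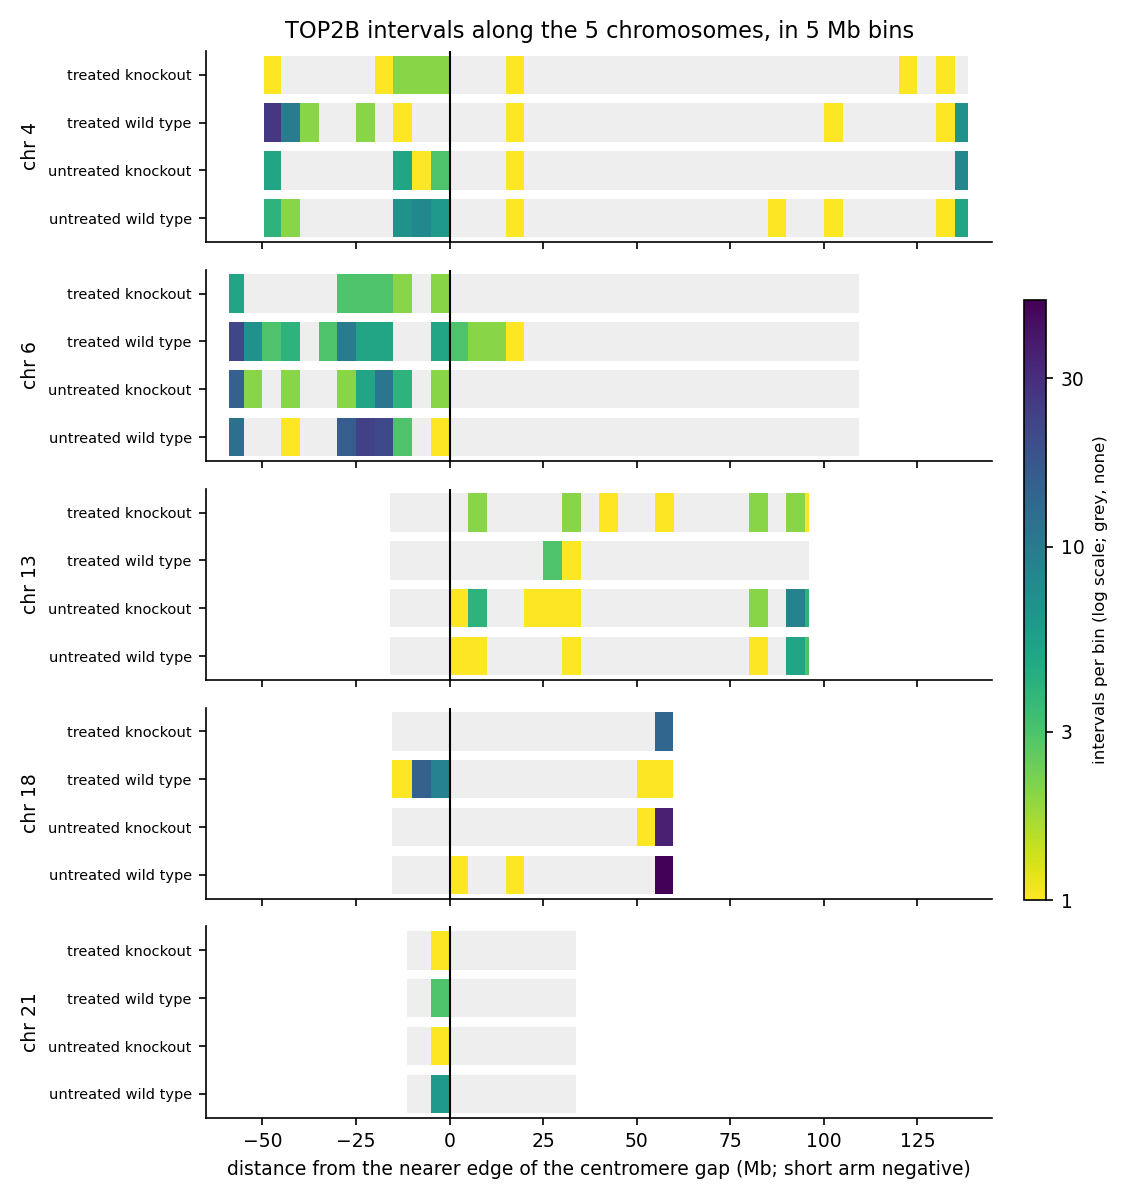
Number of intervals (colour, log scale; grey, none) in bins of 5 Mb along chromosomes 4, 6, 13, 18 and 21, by distance in Mb from the nearer edge of the centromere gap, with 1 row per list. On chromosome 18 treated wild type has 26 intervals on the short arm, where the other lists have none. On chromosome 21 every interval lies on the short arm.

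The first 12 Mb of chromosome 4 held 1 interval in treated knockout, 39 in treated wild type, 5 in untreated knockout and 6 in untreated wild type. By called peaks the counts were 1, 33, 5 and 6. Between 1 and 3 Mb of it treated wild type had 10 intervals and the other lists had 0. Between 33 and 49 Mb, towards the centromere, the order differed, with 7 intervals in treated knockout, 1 in treated wild type, 9 in untreated knockout and 21 in untreated wild type. At the end of the long arm of chromosome 4, from 190 Mb on, treated knockout had 0 intervals. Treated wild type had 7 there, untreated knockout 8 and untreated wild type 5. The treated wild-type intervals there came from 4 called peaks. These stretches, like those given for chromosomes 6, 13 and 18, were delimited after the positions had been seen.

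On chromosome 6 all 4 lists had intervals within the first 1 Mb, with 5 in treated knockout, 19 in treated wild type, 13 in untreated knockout and 9 in untreated wild type. The 19 intervals of treated wild type were pieces of 5 called peaks, so that the counts by called peaks were 5, 5, 13 and 7. Between 1 and 29 Mb there were 0 intervals in treated knockout, 20 in treated wild type, 6 in untreated knockout and 4 in untreated wild type. Between 33 and 45 Mb the counts were 11 in treated knockout, 11 in treated wild type, 20 in untreated knockout and 56 in untreated wild type. The densest window of untreated wild type, at 34 to 35 Mb, held 11 intervals, against 1 in treated knockout, 2 in treated wild type and 2 in untreated knockout.

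Chromosome 13 was the one chromosome of the 5 with more intervals in knockout than in wild type under both conditions. It held 11 in treated knockout and 4 in treated wild type, and 23 in untreated knockout and 12 in untreated wild type. The 4 intervals of treated wild type lay between 47391551 and 52159600. From 99 Mb to its end the chromosome held 5 intervals in treated knockout, 0 in treated wild type, 15 in untreated knockout and 9 in untreated wild type. The window at 113 to 114 Mb held 5 intervals in untreated knockout, where it was the densest, and 3 in untreated wild type, where another window held as many.

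Pericentromeric places, taken as the 5 Mb on either side of the centromere gap, held between 5.56 and 12.6% of the intervals of a list on these chromosomes. The counts were 5 of 55 in treated knockout (9.09%, 3.02 to 20.0), 20 of 159 in treated wild type (12.6%, 7.86 to 18.8), 7 of 126 in untreated knockout (5.56%, 2.26 to 11.1) and 15 of 183 in untreated wild type (8.20%, 4.66 to 13.2). On the other autosomes and X the shares were 17.7, 9.47, 13.3 and 10.6% in the same order of lists. There the density was higher near the gap than on the arms in every list. It was 7.33 and 2.78 intervals per Mb in treated knockout and 4.99 and 3.91 in treated wild type. In untreated knockout it was 9.14 and 4.88, and in untreated wild type 8.89 and 6.14. Density on the 5 chromosomes was 0.100 intervals per Mb near the gap and 0.0928 on the arms in treated knockout, and 0.400 and 0.258 in treated wild type. The untreated lists had 0.140 near the gap and 0.221 on the arms in knockout, and 0.300 and 0.312 in wild type. The lengths behind these densities include the short arms of chromosomes 13 and 21, which are largely missing from GRCh37. Densities near the gap without them were not computed, so small differences from the arms cannot be read. The order in untreated wild type and in treated knockout depended on the setting. With a margin of 2 Mb untreated wild type had 0.600 intervals per Mb near the gap and 0.301 on the arms. Among its intervals with a maximum at or above the list median the values were 0.160 and 0.0557. With a margin of 10 Mb treated knockout had 0.09 near the gap and 0.0941 on the arms. Untreated knockout stayed lower near the gap, at 0.200 and 0.215 with 2 Mb and 0.140 and 0.147 by the list-median threshold. These 2 values near the gap rest on 4 and 7 intervals. The sets near the gap were also mixed: 9 of the 20 in treated wild type were the inner part of the 18p intervals, and all intervals of chromosome 21 fell within the margin.

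By intervals, chromosome ends held a larger share than elsewhere in untreated knockout and treated wild type, and in the other lists through chromosome 18. Within 5 Mb of an end lay 23 of 55 intervals in treated knockout (41.8%, 28.7 to 55.9), 60 of 159 in treated wild type (37.7%, 30.2 to 45.8), 78 of 126 in untreated knockout (61.9%, 52.8 to 70.4) and 78 of 183 in untreated wild type (42.6%, 35.4 to 50.1). On the other autosomes and X the shares were 25.4, 25.3, 23.0 and 22.1% in the same order. This distance was chosen after the positions had been seen. By called peaks the share in treated wild type was 30.8%, and the share elsewhere by called peaks was not computed. On chromosome 18, 14 of 14 intervals lay near an end in treated knockout, 4 of 28 in treated wild type, 36 of 36 in untreated knockout and 49 of 51 in untreated wild type. Without chromosome 18 the shares were 9 of 41 in treated knockout (21.95%, 10.6 to 37.6), 56 of 131 in treated wild type (42.7%), 42 of 90 in untreated knockout (46.7%) and 29 of 132 in untreated wild type (21.97%, 15.2 to 30.004). Chromosome 21 had 0 intervals near an end in every list, and chromosome 13 had 0 in treated wild type.

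The called peak behind each interval has a maximum, taken to be the authors' own highest signal value, of unstated scaling. It is given here in multiples of the median of its list and compared only within a list. The called peak reached this value beyond the interval's bounds for 45.5% of members in treated knockout and 62.9% in treated wild type. In untreated knockout the share was 11.1%, and in untreated wild type 40.4%. Positions quoted with a maximum are those of the interval, not of the maximum itself. In 3 of the 4 lists most members came from peaks below the list median. The maximum was at or above the list median for 22 of 55 members in treated knockout, 56 of 159 in treated wild type (35.2%), 86 of 126 in untreated knockout (68.3%) and 38 of 183 in untreated wild type (20.8%). Elsewhere the shares were 64.2, 59.04, 74.3 and 52.2% in the same order of lists. The median maximum of the members was 0.87, 0.91, 1 and 0.83 list medians in the same order, with the values bound to a few steps. The list median and these shares take every interval, so a split peak counts once for each of its pieces. Such pieces were commoner elsewhere than among members in every list. The shares by called peaks were not computed, so their difference from elsewhere cannot be read as one of peak height alone.

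In each list 3 members exceeded the list median more than 2-fold, and they were at the same 3 places. The highest lay on chromosome 6, 52 kb short of the centromere gap, at 58776201 to 58780000 in treated knockout, 58776151 to 58779750 in treated wild type, 58776151 to 58780150 in untreated knockout and 58776151 to 58780200 in untreated wild type. Its maximum was 83.8 times the list median in treated knockout, 193 times in treated wild type, 87.6 times in untreated knockout and 83.4 times in untreated wild type. It ranked 1 among the 6616 called peaks of the whole treated wild-type list and 4 in each of the other lists. This place and the other high places were not checked against a list of regions excluded for unreliable signal, and what their maxima reflect was not tested.

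The second place was on the short arm of chromosome 21, at 9825401 to 9827600 in both knockout lists, 9825451 to 9827700 in treated wild type and 9825401 to 9827800 in untreated wild type. Its maximum was 10 times the list median in treated knockout, 11.6 times in treated wild type, 12.2 times in untreated knockout and 17.7 times in untreated wild type, with ranks from 9 to 12. It was the only interval of chromosome 21 in both knockout lists, beside 3 intervals in treated wild type and 6 in untreated wild type, all of them before 11146900. The third place was on the long arm of chromosome 4, 15.6 Mb from the centromere gap and so outside the pericentromeric margin. It spanned 68264301 to 68265900 in treated knockout, 68264201 to 68266150 in treated wild type, 68264201 to 68266300 in untreated knockout and 68264151 to 68266850 in untreated wild type. Its maximum was 2.12, 2.36, 2.60 and 2.42 list medians in that order.

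**Figure D3:**
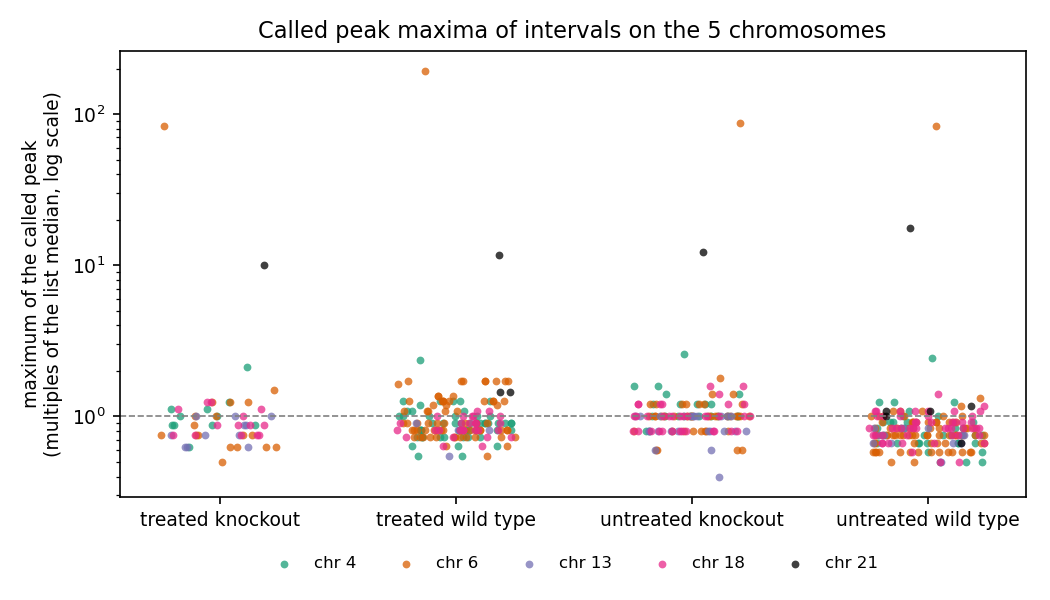
Maximum of the called peak behind each interval on the 5 chromosomes, in multiples of the list median (log axis), by list and chromosome, with the list median as a dashed line. In every list 1 interval of chromosome 6 stands above 83 list medians, 1 of chromosome 21 lies at 10 or above and 1 of chromosome 4 lies just above 2, while the rest lie at or below 1.8.

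No member on chromosomes 13 and 18 exceeded 1.6 list medians. On chromosome 18 the highest was an interval at 76271451 to 76272500 in treated knockout (1.25 list medians), at 9539351 to 9541050 in treated wild type (1.09), at 75618101 to 75619250 in untreated knockout (1.6) and at 18510801 to 18512450 in untreated wild type (1.42). The last of these lies 50.7 kb beyond the centromere gap, and the others lie on the arms. In every list but untreated wild type another interval reached the same value, and the one at the lowest position is named. On chromosome 13 the highest interval reached 1 list median in both knockout lists, 0.91 in treated wild type and 0.83 in untreated wild type.

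Members were slightly narrower than intervals elsewhere and less often pieces of a split peak. The median width was 1050 bp in treated knockout (interquartile range 700 to 1525), 1150 bp in treated wild type, 1575 bp in untreated knockout and 2400 bp in untreated wild type (1900 to 2900). On the other autosomes and X it was 1150, 1200, 1650 and 2600 bp in the same order, so that widths followed the list more than the chromosome. An interval that shares its area, maximum and region of the maximum with another is a piece of a called peak. Such pieces made up 0 of 55 members in treated knockout, 47 of 159 in treated wild type (29.6%), 0 of 126 in untreated knockout and 30 of 183 in untreated wild type (16.4%). The shares elsewhere were 33.9, 50.2, 3.37 and 50.4%.

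The spacing of members followed from the low counts by which their chromosomes were chosen. The median distance to the nearest interval of the same list was 219 kb in treated knockout, 59.98 kb in treated wild type, 56.7 kb in untreated knockout and 32.1 kb in untreated wild type. For the other autosomes and X it was between 5.7 and 7.97 kb. A neighbour within 100 kb was present for 43.6, 55.3, 65.9 and 68.9% of members in that order of lists, beside 89.6, 91.6, 92.8 and 94.4% elsewhere.

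Merging overlapping intervals of the 4 lists gave 447 positions on the 5 chromosomes. Of these, 404 (90.4%) had an interval in 1 list, 30 in 2, 7 in 3 and 6 in all 4. On the other autosomes and X, 72.6% of 28749 merged positions were in 1 list and 662 positions were in all 4. The 6 positions in all lists were the 3 high places above, 3588251 to 3590800 on chromosome 4, and 297451 to 308300 and 347401 to 359250 on chromosome 6. The last 3 had maxima between 0.75 and 1.73 list medians. Among the 30 positions in 2 lists, 15 joined untreated knockout and untreated wild type, the most frequent pair.

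Knockout against wild type without drug asks what the loss of METTL7A changes in untreated cells. The 5 chromosomes held 126 intervals in untreated knockout and 183 in untreated wild type, a ratio of list shares of 0.842 (0.666 to 1.06). By called peaks the ratio was 0.644, and among intervals whose maximum was at or above the list median (called above the list median from here on) it was 1.93, so the direction depended on the threshold. Chromosome 6 held 43 intervals in untreated knockout and 78 in untreated wild type (ratio 0.674, 0.454 to 0.991), and chromosome 13 held 23 and 12 (2.34, 1.12 to 5.17). These ratios and ranges rest on list totals that count the pieces of a split peak separately. By called peaks chromosome 13 also held 23 and 12, of 12284 in untreated knockout and 10488 in untreated wild type. No ratio or range by called peaks was computed for single chromosomes. Above the list median chromosome 6 turned, with 31 intervals in untreated knockout and 12 in untreated wild type (2.21, 1.10 to 4.72). On chromosome 18 the counts were 36 in untreated knockout and 51 in untreated wild type (0.863, 0.547 to 1.35), and on chromosome 4 they were 23 and 36 (0.781, 0.442 to 1.36). Above the list median these also turned, to 23 and 14 on chromosome 18 (1.40, 0.692 to 2.95) and 21 and 7 on chromosome 4 (2.56, 1.05 to 7.14).

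Windows of 1 Mb with at least 10 intervals in either list were compared by their shares of the lists, and a difference of at least 2-fold was counted. In the untreated pair the 5 chromosomes had 4 such windows. One, at 34 to 35 Mb of chromosome 6, was lower in untreated knockout, with 2 intervals against 11 in untreated wild type, and 0 were higher. Over the genome 18.3% of 360 windows were lower in the knockout and 3.61% higher. By called peaks this window held 2 in untreated knockout and 8 in untreated wild type, below the minimum of 10. The windows at 74 to 75 Mb and 77 to 78 Mb of chromosome 18 and the first 1 Mb of chromosome 6 did not reach 2-fold.

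The overlap between the untreated lists was as follows. Of the 126 members in untreated knockout, 95 had no overlapping interval in untreated wild type, set against 46.3% of all intervals of that list. The share with one was 24.6% (17.4 to 33.1), and 53.97% (53.1 to 54.9) on the other autosomes and X. In the other direction 157 of 183 members of untreated wild type had none in untreated knockout, set against 64.9% of the list, and the share with one was 14.2% (9.50 to 20.1), beside 35.4% elsewhere. Among intervals above the list median that share was 42.1% (26.3 to 59.2), beside 51.4% elsewhere, while for untreated knockout in untreated wild type it was 27.9%, beside 58.7% elsewhere. On chromosome 18, where both lists were concentrated in the same terminal part of 18q, 9 of 36 knockout intervals and 8 of 51 wild-type intervals overlapped one of the other list. Chromosome 13 had 1 of 23 and 1 of 12. Fewer intervals per Mb also leave fewer to overlap, and the part of density in these shares was not tested.

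Under osimertinib most of these chromosomes held fewer intervals in knockout than in wild type, and whether this differs from the untreated pair was not tested. Treated knockout held 55 intervals and treated wild type 159, a ratio of list shares of 0.446 (0.322 to 0.609). Above the list median it was 0.463, against 1.93 in the untreated pair. On chromosome 4 there were 11 intervals in treated knockout and 52 in treated wild type (0.273, 0.128 to 0.529), and chromosome 6 held 18 and 72 (0.322, 0.181 to 0.546). Chromosome 13 went the other way with 11 and 4 (3.54, 1.05 to 15.3). This range rests on list totals that count the pieces of a split peak separately. By called peaks chromosome 13 also held 11 and 4, of 6023 in treated knockout and 6616 in treated wild type, and no ratio was computed. Chromosome 18 had 14 and 28 (0.644, 0.313 to 1.27), which lay on opposite arms. Libraries of unknown depth lie behind both lists.

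On the 5 chromosomes 2 windows reached 10 intervals in the treated pair, and both were lower in treated knockout. At 3 to 4 Mb of chromosome 4 there was 1 interval in treated knockout and 10 in treated wild type, and in the first 1 Mb of chromosome 6 there were 5 and 19. By called peaks the chromosome 4 window held 1 in treated knockout and 8 in treated wild type, and the chromosome 6 window held 5 in each, so that its difference was lost. Over the genome 51% of 353 windows were lower in treated knockout and 28% higher, so such windows were common. Of the 55 members in treated knockout 46 had no overlapping interval in treated wild type, set against 86.6% of that list. Of the 159 members in treated wild type 149 had none in treated knockout, set against 89.5%. The share with one in the first direction, 16.4% (7.77 to 28.8), was near that of the other autosomes and X, 13.4%. In the second it was 6.29% (3.06 to 11.3), beside 10.5% elsewhere. Without the 3 high places the shares were 11.5 and 4.49%. Above the list median, with those 3 places kept, they were 27.3 and 12.5%, beside 14.4 and 12.6% elsewhere. None of the 14 treated knockout intervals on chromosome 18 and none of the 11 on chromosome 13 overlapped one of treated wild type.

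**Figure D4:**
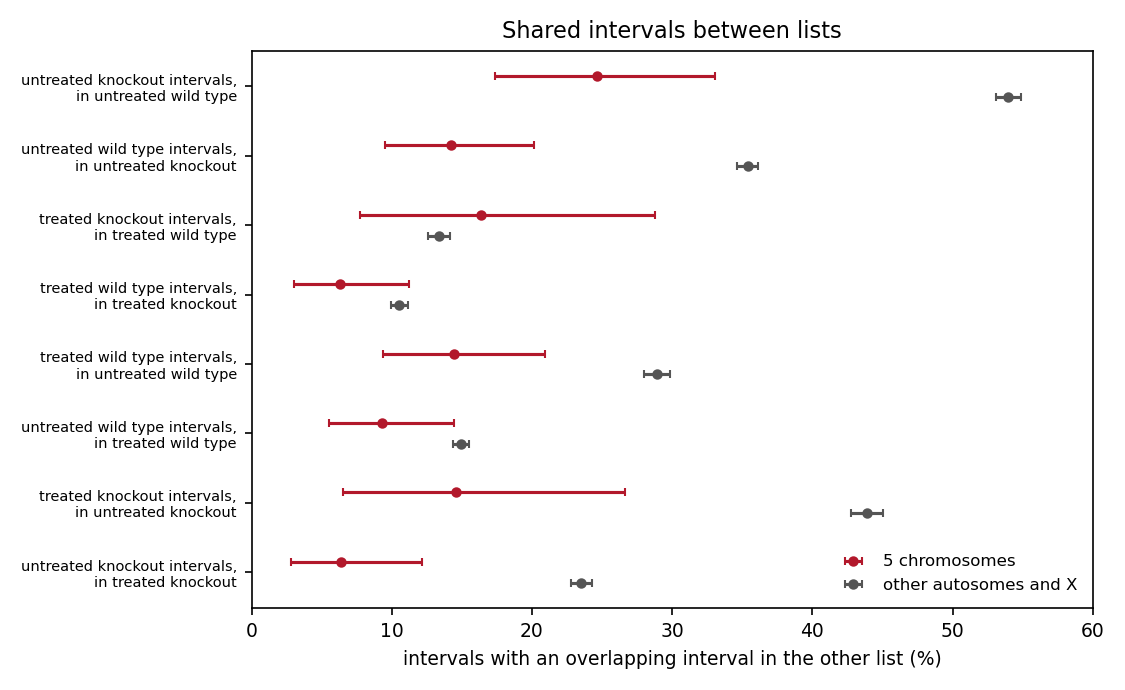
Share of intervals (%) with an overlapping interval in the other list of each pair, for the 5 chromosomes (red) and the other autosomes and X (grey), with 95% Clopper-Pearson intervals. The 5 chromosomes lie below the rest in 7 of the 8 rows; the exception is treated knockout in treated wild type (16.4% on the 5 chromosomes and 13.4% elsewhere).

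In wild type, osimertinib against no treatment addresses cells that had grown under the drug. The members numbered 159 in treated wild type and 183 in untreated wild type, and because the treated list was shorter the ratio of list shares was 1.38 (1.10 to 1.71). The range in brackets counts the pieces of a split peak as separate. By called peaks the ratio was 1.23, with no such range computed. On chromosome 4 there were 52 intervals in treated wild type and 36 in untreated wild type (2.29, 1.47 to 3.60), and chromosome 6 held 72 and 78 (1.46, 1.05 to 2.04). By called peaks chromosome 4 held 43 in treated and 33 in untreated wild type, and chromosome 6 held 55 and 69. The whole lists held 6616 called peaks in treated and 10488 in untreated wild type. No ratio or range by called peaks was computed for either chromosome, so whether their ranges would include 1 is not known. Chromosome 18 held 28 and 51 (0.869, 0.528 to 1.40), and chromosome 13 held 4 and 12 (0.528, 0.124 to 1.74). Of 5 windows with at least 10 intervals, 2 had a higher share in treated wild type and 3 a lower one. Those higher were 3 to 4 Mb of chromosome 4, with 10 intervals in treated and 3 in untreated wild type, and the first 1 Mb of chromosome 6, with 19 and 9. Those lower were on chromosome 18 at 77 to 78 Mb (0 in treated and 19 in untreated wild type) and 74 to 75 Mb (1 and 16), and on chromosome 6 at 34 to 35 Mb (2 and 11). Over the genome 33% of 464 windows were higher and 36% lower. By called peaks both higher calls were lost, with 8 in treated and 3 in untreated wild type at 3 to 4 Mb of chromosome 4 and 5 and 7 in the first 1 Mb of chromosome 6. So was the lower call on chromosome 6 (2 and 8), while those on chromosome 18 remained, with 0 and 17 at 77 to 78 Mb and 1 and 16 at 74 to 75 Mb.

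Of the 159 members in treated wild type 136 had no overlapping interval in untreated wild type, set against 71.3% of the list, and 23 (14.5%, 9.40 to 20.9) had one, beside 28.9% elsewhere. Of the 183 members in untreated wild type 166 had none in treated wild type, set against 85.2% of the list. The share with one, 9.29% (5.51 to 14.5), compares with 14.9% on the other autosomes and X. Above the list median the shares were 35.7% for treated wild type in untreated wild type, beside 32.2% elsewhere, and 23.7% for the reverse, beside 18.01% elsewhere. On chromosome 18 a single position was shared between these lists.

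In the knockout the 5 chromosomes held 55 intervals under osimertinib and 126 without, a ratio of list shares of 0.728 (0.520 to 1.01). Chromosomes 4, 6, 13 and 18 each held fewer in treated than in untreated knockout, with 11 and 23, 18 and 43, 11 and 23, and 14 and 36 intervals, and the interval of each ratio included 1. Of 3 windows with at least 10 intervals 1 was lower in treated knockout, at 74 to 75 Mb of chromosome 18, with 2 intervals in treated and 10 in untreated knockout. Over the genome 15.2% of 276 windows were lower and 2.9% higher. At 77 to 78 Mb of chromosome 18 the counts of 7 in treated and 12 in untreated knockout were equal in share, with a log2 ratio of 0.00.

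Although both knockout lists lay on the same arm of chromosome 18, 1 of the 14 treated intervals there overlapped an untreated one. Of the 55 members in treated knockout 47 had no overlapping interval in untreated knockout, set against 56.3% of the list. Of the 126 members in untreated knockout 118 had none in treated knockout, set against 76.6% of the list. The shares with one were 14.5% (6.50 to 26.7) and 6.35% (2.78 to 12.1), beside 43.9 and 23.5% on the other autosomes and X. Without the 3 high places they were 9.62 and 4.07%. Above the list median they were 27.3 and 8.14%, beside 52.9 and 27.2% elsewhere. The contrasts under drug and the contrasts between genotypes share lists, so their values are not independent of each other.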

How the data were processed

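TOP2B was profiled in 8 libraries, 2 for each of 4 conditions. Lists for the 8 H2A libraries were not analysed here. The submitters' processing notes name SEACR, Bowtie2 2.4.2, Trimmomatic, FastQC, SAMtools 1.16, deepTools 3.5.1, bedtools 2.30 and GRCh37, with peak-calling mode, control, duplicate handling and excluded regions not given in the sources used here. Each called peak has an area, a deposited score, and a maximum, a deposited signal of unstated scaling, both identified from their values because the lists have no header. Depth is unknown.

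Intervals were counted with Python 3.11.15, pandas 2.3.3, NumPy 2.4.6 and SciPy 1.17.1 on standard GRCh37 chromosome lengths and centromere gaps, entered by hand; 0 intervals lay inside a gap or beyond a chromosome end. Chromosome Y was left out. Starts are counted from 1. Overlap meant at least 1 bp. Windows were compared after adding 0.5 intervals to each count. Shares carry exact Clopper-Pearson intervals, densities exact Poisson intervals and ratios exact conditional intervals, all for counting error only. Counting steps were tested on simulated data. Named places were the densest window and the highest interval per chromosome and list, windows past 2-fold, and positions in all 4 lists; other stretches were chosen after their values were seen. Members, settings and lists were chosen with earlier results of these data known. Gene names were not used, since no annotation of GRCh37 was at hand.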

Additional observations from a re-analysis of the deposited data

Results flagged for a closer look

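The ratio of list shares, osimertinib over untreated, lay on opposite sides of 1 in wild type and knockout for 4 quantities; with 1 list per condition these differences between genotypes were not tested. For the 5 chromosomes together it was 1.38 in wild type and 0.728 in knockout. It was 2.29 in wild type and 0.797 in knockout for chromosome 4, and 1.46 and 0.698 for chromosome 6. For chromosome 21 it was 0.791 in wild type and 1.67 in knockout, which rests on 3 and 6 intervals in treated and untreated wild type and on 1 in each knockout list. The counting interval of every one of these knockout ratios included 1, as did that of chromosome 21 in wild type. Those of the other wild-type ratios did not, but they count the pieces of a split peak separately.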

How the results depend on the processing

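No paired analysis was possible because each list joins both replicates of a condition, and no replicate could be left out. Counting called peaks gave 0.215 per Mb in treated wild type, a list share ratio of 0.644 for untreated knockout over wild type, and 0 differing windows for that pair and 2 for osimertinib over untreated in wild type. In 5 Mb windows the counts were 2 and 6 for knockout over wild type (untreated, osimertinib) and 9 and 2 for osimertinib over untreated (wild type, knockout). By called peaks no window of the treated pair reached the minimum. With a minimum of 20 intervals no window of the 5 chromosomes remained. Keeping only maxima at or above the list median gave 0.0364, 0.0928, 0.142 and 0.0630 intervals per Mb in treated knockout, treated wild type, untreated knockout and untreated wild type. It also gave pericentromeric shares of 23.2% in treated wild type and 21.1% in untreated wild type, and list share ratios of 1.93 for untreated knockout over wild type, 2.06 for osimertinib in wild type and 0.494 in knockout. Under that threshold the share with a counterpart was 42.1% for untreated wild type in untreated knockout, 12.5% for treated wild type in treated knockout, 35.7% for treated wild type in untreated wild type, 23.7% for the reverse and 27.3% for treated knockout in untreated knockout. Requiring an overlap of 50% of both gave 7.14% for untreated knockout in untreated wild type and 4.92% for the reverse, 7.27% for treated knockout in treated wild type and 2.52% for the reverse, and 4.40% for treated wild type in untreated wild type and 3.83% for the reverse. A margin of 2 Mb gave a pericentromeric share of 5.66% in treated wild type and one of 10 Mb 23.3%. The cause of these shifts was not tested, beyond the smaller or larger number of intervals each setting keeps. The other 45 values of these results stayed within their counting intervals or, for widths, their interquartile range, and for window counts within 1.5 times. On chromosomes 4, 6 and 18 the arm with more intervals was the same in every list by called peaks and above the list median. Within 2 Mb of a chromosome end the shares were 25.2% in treated wild type, 37.3% in untreated knockout and 26.8% in untreated wild type, and within 10 Mb 55.97% in treated wild type. These counts by arm and by distance from an end were chosen after seeing the data.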
